A study of Mus musculus with 6 samples.

Results

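Sonic hedgehog pathway genes were examined in cortical cells of the E13.5 mouse embryo (the embryonic day) after knockdown of Ybx1, an RNA-binding protein that reads 5-methylcytosine in mRNA. The members were the 9 genes Ptch1, Boc, Cdon, Hhip, Smo, Sufu, Gli1, Gli2 and Gli3, taken by symbol from a table of 17920 genes, and each had 1 row. Cells in culture received, by lentivirus, a short hairpin RNA against Ybx1 (KD) or a control hairpin (called WT in the labels and Ctrl in the data columns), and puromycin was added to kill uninfected cells before RNA was collected. There were 3 libraries per group, from what the methods call independent replicate experiments. The sample labels give cortex as the tissue, and a deletion is mentioned in the series text, but it is the methods that describe a culture. Both groups, by those methods, were infected and selected. Which Ybx1 hairpin these libraries carried is not given in the sources used here.

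In the hedgehog pathway, the secreted ligand Sonic hedgehog binds the receptor Patched (Ptch1) and the co-receptors Boc and Cdon. Unbound Patched holds the membrane protein Smoothened (Smo) inactive, and binding of the ligand releases it at the primary cilium. Smoothened then frees the Gli transcription factors from Sufu, so that Gli2 acts mainly as an activator, the repressor form of Gli3 is no longer made, and Gli1, itself a target gene, is switched on. Ptch1 and Hhip, which binds and sequesters the ligand, are also targets and act as negative feedback. In the embryonic forebrain the ligand comes mainly from ventral regions and patterns them, while Gli3 repressor keeps the dorsal cortex from taking a ventral identity.

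The 3 Gli genes encode related zinc-finger proteins, so the coding stretch in which Gli2 and Gli3 match best is shown first, since reads from near-identical sequence could be assigned to the wrong gene. It is the best ungapped match of 60 bases between the Gli2 and Gli3 coding sequences of the GENCODE transcripts on GRCm38, with Gli1 placed by its best match to the Gli3 stretch. Capitals mark the 45 bases that are identical in all 3 genes, 5′ to 3′ on the coding strand.

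Gli1: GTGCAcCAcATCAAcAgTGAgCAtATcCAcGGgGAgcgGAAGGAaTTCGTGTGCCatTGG

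Gli2: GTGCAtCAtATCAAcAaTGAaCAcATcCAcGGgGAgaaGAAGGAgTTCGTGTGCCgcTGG

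Gli3: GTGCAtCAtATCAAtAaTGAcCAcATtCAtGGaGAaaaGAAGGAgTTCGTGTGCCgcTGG

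Each stretch crosses a splice junction between coding exons, so the coordinates span the intron as well. It lies across exons 8 and 9 of 13 of Gli1 (chr10:127336059-127336417, minus strand), exons 9 and 10 of 14 of Gli2 (chr1:118846013-118848388, minus strand) and exons 10 and 11 of 15 of Gli3 (chr13:15662525-15713552, plus strand). Gli2 matched Gli3 at 54 of these bases and Gli1 matched Gli3 at 45. The best 60-base matches of the other pairs were closer, at 56 bases for Gli1 and Gli2 and 55 for Gli1 and Gli3, and are not shown. The longest exact run shared by 2 of the coding sequences was 25 bases for Gli2 and Gli3, 23 for Gli1 and Gli2 and 14 for Gli1 and Gli3. The estimated counts of all 9 members were whole numbers in every library (exactly equal to their rounded value as deposited), whereas between 89.3% and 89.9% of all values in a library were whole. Fractions arise where a program divides a read between genes.

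Library totals lay between 16294635 and 16497505 estimated counts, and 13669 genes, the 9 members among them, passed the filter on low counts, so none of the 9 was too low to test. Values are normalised counts scaled to a common library size (CPM), tests are edgeR's quasi-likelihood test of KD against WT with the Benjamini-Hochberg adjustment over all genes tested, and a gene is said to have risen or fallen where its adjusted p was under 0.05. The targeted gene was lower in every KD library: Ybx1 was at 618, 615 and 653 CPM in WT replicates 1, 2 and 3 and at 98.3, 92.2 and 159 CPM in KD, a fitted difference of -2.43 log2 units (SE 0.18, adjusted p = 1.8e-04). Libraries with the same replicate number deviated together from their group means, so KD to WT ratios within a number are also given below as pairs.

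Of the 9 hedgehog pathway genes, 7 rose in KD and 0 fell. Over all genes tested, 12% were called higher and 11.9% lower, 24.0% in all. Of those calls 50.23% were higher, against 65.95% with limma on TPM, where the same 7 members were higher. The rise was largest for the Gli factors, at 2.51-fold for Gli1, 2.05-fold for Gli3 and 1.77-fold for Gli2, followed by the co-receptors Boc (1.67-fold) and Cdon (1.39-fold), then Smo (1.25-fold) and Sufu (1.19-fold). The feedback genes Ptch1 and Hhip did not pass the threshold. The median log2 fold change of the 9 genes was 0.48, against 0.00 (-0.0013) over all genes tested. All KD libraries lay above all WT libraries for the same 7 genes, while 21.0% of the genes tested showed this pattern. In bulk RNA, a difference in the number of cells that express a gene and a difference in RNA per cell cannot be told apart.

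**Figure D1:**
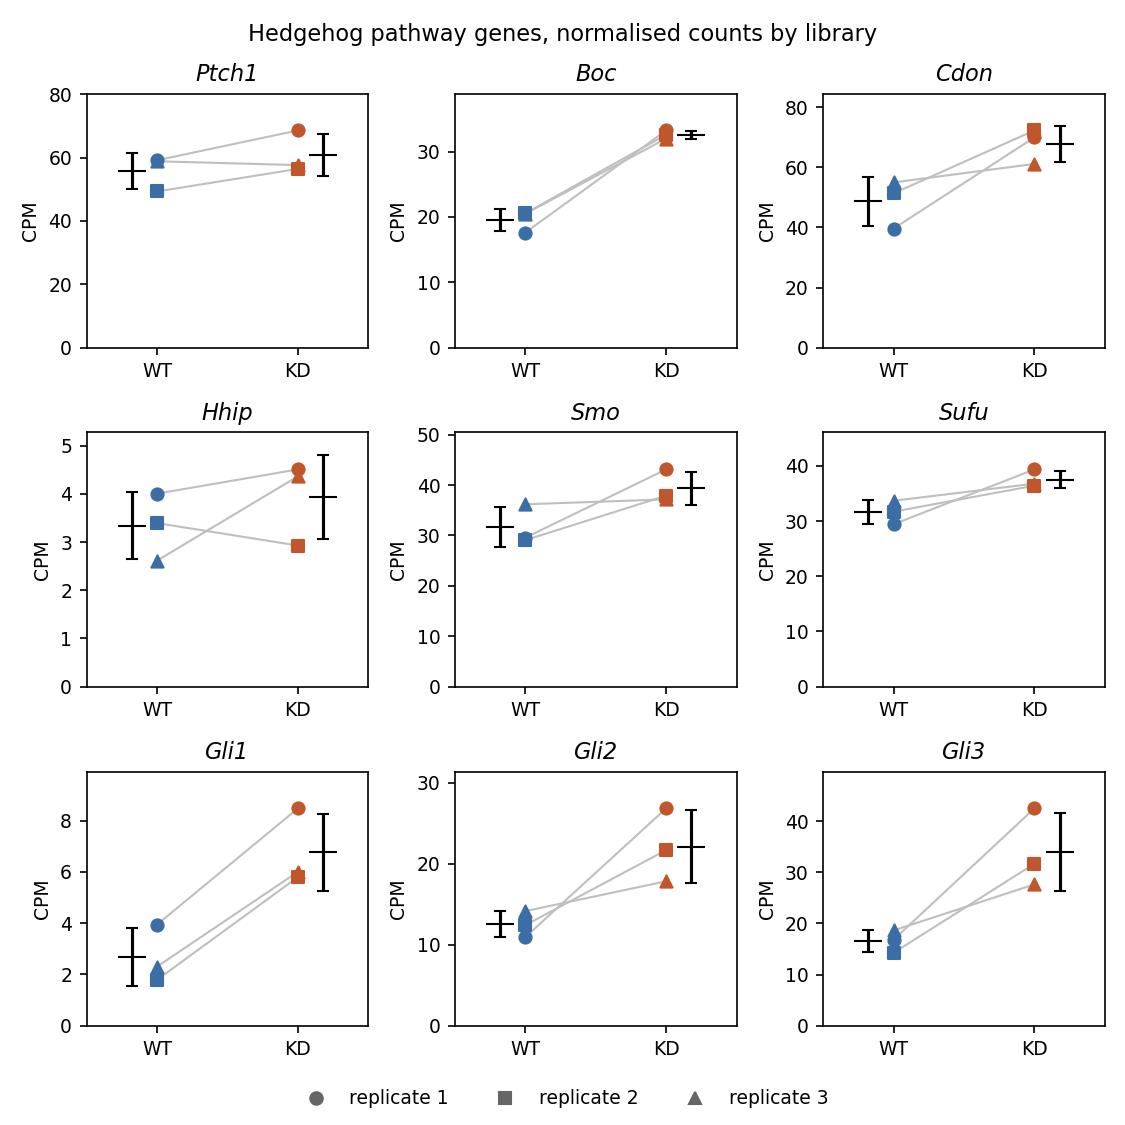
Normalised counts (CPM, y axis from 0) of the 9 hedgehog pathway genes in the WT (blue) and KD (orange) libraries, with a symbol for each replicate number, grey lines joining same-numbered libraries and black bars for the mean and SD of 3 libraries. KD points lie above all WT points for Boc, Cdon, Smo, Sufu and the 3 Gli genes, and the groups overlap for Ptch1 and Hhip.

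The Gli factors are the transcriptional effectors of the pathway. Gli1 (Entrez Gene 14632, chr10:127329882-127341974 on GRCm38) was at 3.95, 1.79 and 2.30 CPM in WT replicates 1, 2 and 3 and at 8.48, 5.80 and 6.0 CPM in KD. The groups did not overlap, and replicate 1 was the highest of both. The mean moved from 2.68 ± 1.13 to 6.76 ± 1.49 CPM (SD, n = 3 libraries each), a fitted difference of 1.33 log2 units (SE 0.28, adjusted p = 0.0103), and 22 of the 13669 genes tested had a larger log2 fold change. These values rest on few reads, 65, 29 and 37 counts in WT and 141, 95 and 99 in KD. Gli2 (chr1:118834132-119053619), the main activator, was at 10.9, 12.4 and 14.1 CPM in WT and 26.8, 21.7 and 17.8 CPM in KD. The lowest KD library was above the highest WT library, both of them replicate 3, and the comparison gave a fitted difference of 0.82 log2 units (SE 0.16, adjusted p = 0.00708). Gli3 (chr13:15463235-15730026), the main repressor, was at 16.8, 14.3 and 18.6 CPM in WT and 42.5, 31.7 and 27.6 CPM in KD, a fitted difference of 1.03 log2 units (SE 0.16, adjusted p = 0.0031). All 3 KD libraries were above the WT range, KD replicate 1 farthest, and 59 genes had a larger log2 fold change. Without both replicate 2 libraries the adjusted p was 0.0972 for Gli1, 0.11 for Gli2 and 0.0707 for Gli3, while the log2 fold changes were 1.21, 0.83 and 0.98.

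TPM, which divides by transcript length, was used to compare levels between genes. The summed TPM of the 3 Gli genes was 9.78 ± 1.03 in WT and 20.5 ± 4.75 in KD (SD, n = 3). Gli3 held the largest mean share of this sum in both groups, 44.3 ± 1.22% in WT and 45.1 ± 0.932% in KD. Gli2 held 39.7 ± 5.26% and 34.7 ± 1.37%, and Gli1 16 ± 6.18% and 20.2 ± 1.68%. The share of each Gli gene overlapped between the groups (for Gli1, from 12% to 23.2% in WT and from 18.5% to 21.8% in KD). The sum did not overlap, at 8.66 to 10.7 TPM in WT and 16.5 to 25.8 TPM in KD.

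Boc and Cdon are immunoglobulin-family membrane proteins that bind the ligand together with Patched. Boc (chr16:44485049-44558897) was at 17.6, 20.6 and 20.5 CPM in WT and 33.2, 32.6 and 32 CPM in KD. The 3 KD libraries were close to each other and above all WT libraries, a fitted difference of 0.74 log2 units (SE 0.08, adjusted p = 6.7e-04). Boc passed the threshold under all 17 alternatives tried, and 219 genes had a larger log2 fold change. Cdon (chr9:35421128-35507652) was at 39.6, 51.4 and 55.0 CPM in WT and 70.0, 72.3 and 61.2 CPM in KD, a fitted difference of 0.48 log2 units (SE 0.12, adjusted p = 0.0185). KD replicate 3 was the lowest KD library and WT replicate 1 the lowest of all. Without KD replicate 2 the adjusted p of Cdon was 0.0719.

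Smo, the transducer, and Sufu, the cytoplasmic inhibitor of the Gli proteins, rose least of the 7. Smo (chr6:29735503-29761365) was at 29.6, 29.1 and 36.2 CPM in WT and 43.1, 37.9 and 37.2 CPM in KD, a fitted difference of 0.32 log2 units (SE 0.10, adjusted p = 0.0436). WT replicate 3 came close to KD replicate 3, and the groups did not overlap. The adjusted p of Smo was 0.111 without WT replicate 1, 0.15 without WT replicate 2, 0.124 without KD replicate 1, 0.0879 without KD replicate 2 and 0.0553 without KD replicate 3, and 0.0597 with upper quartile scaling. Sufu (chr19:46396896-46488804) was at 29.4, 31.7 and 33.7 CPM in WT and 39.4, 36.4 and 36.8 CPM in KD, a fitted difference of 0.25 log2 units (SE 0.07, adjusted p = 0.032). Its adjusted p was 0.0963 without WT replicate 1, 0.0928 without WT replicate 2, 0.0916 without KD replicate 1, 0.0702 without KD replicate 2 and 0.0559 without KD replicate 3, and 0.0622 with DESeq2. Both genes passed without WT replicate 3. The log2 fold changes ran from 0.25 to 0.43 for Smo and from 0.20 to 0.30 for Sufu over the alternatives.

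Ptch1 and Hhip are the feedback genes of the pathway. Ptch1 (chr13:63508328-63573598) was at 59.2, 49.3 and 58.9 CPM in WT and 68.6, 56.4 and 57.6 CPM in KD, and the groups overlapped. Its log2 fold change was 0.13 (SE 0.10, adjusted p = 0.367), with a 95% interval from -0.09 to 0.34 that ends below the fitted value of each Gli gene. Hhip (chr8:79965851-80058006) was at 4.01, 3.39 and 2.62 CPM in WT and 4.51, 2.93 and 4.36 CPM in KD, with KD replicate 2 below 2 of the WT libraries. Its log2 fold change was 0.24 (SE 0.22, adjusted p = 0.479), with an interval from -0.27 to 0.74. At 42 to 75 counts per library, a rise of Hhip as large as that of Smo or Cdon could not be told from no change. The TPM ratio of Gli1 to Ptch1 was 0.139, 0.0754 and 0.0817 over the WT libraries and 0.257, 0.214 and 0.217 in KD, without overlap. The difference between the changes of Gli1 and Ptch1 was not tested.

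**Figure D2:**
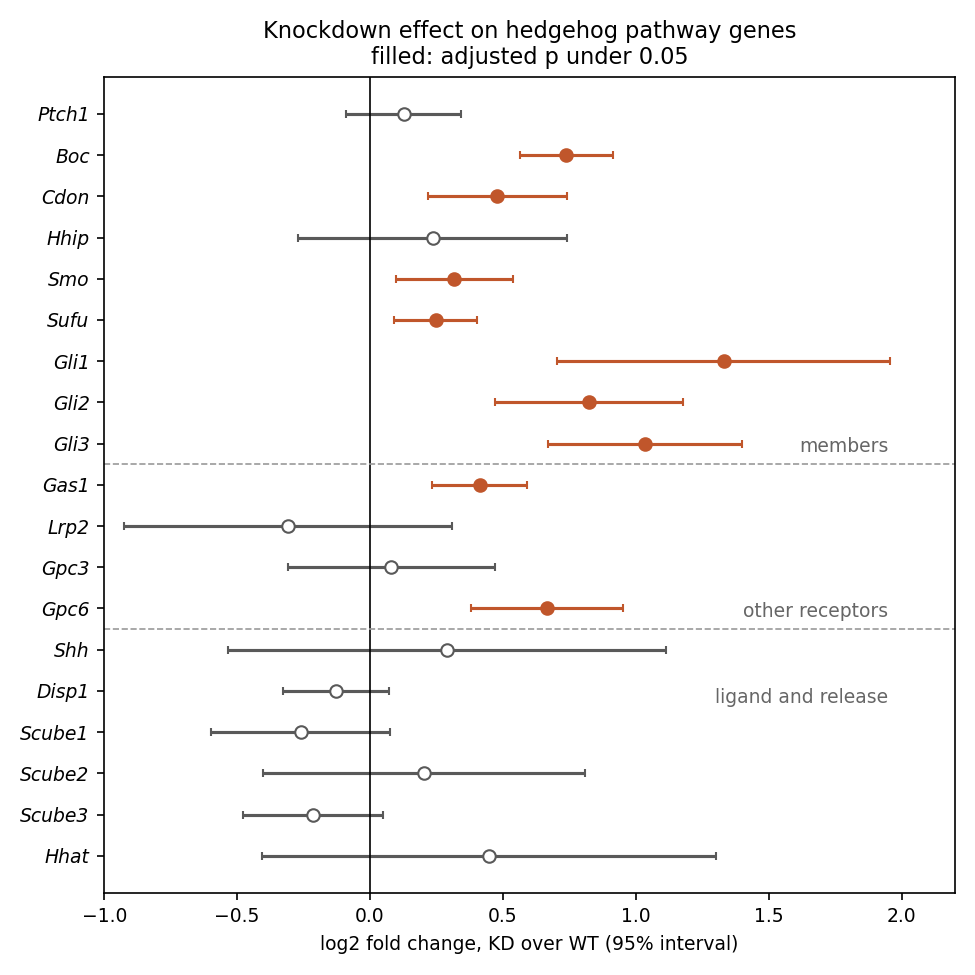
Log2 fold change of KD over WT with 95% intervals (x axis) for the 9 members, 4 other receptors or co-receptors and 6 genes of the ligand and its release, filled where the adjusted p was under 0.05. The Gli genes, Boc, Cdon, Smo and Sufu lie to the right of 0, the intervals of Ptch1 and Hhip include 0, and none of the 6 ligand genes is filled.

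By TPM, the membrane and cytoplasmic members were above the Gli genes and Hhip in both groups. In WT, Smo (16.8 ± 2.27 TPM), Ptch1 (15.8 ± 1.75), Cdon (15.2 ± 2.30) and Sufu (14.8 ± 1.1) came first, and neighbours in this order overlapped (SD, n = 3). Boc followed at 9.39 ± 0.821 TPM, then Gli3 (4.34 ± 0.515) and Gli2 (3.87 ± 0.529), which overlapped each other, Gli1 (1.58 ± 0.663) and Hhip (0.817 ± 0.144). In KD, Cdon (21.8 ± 2.34 TPM) and Smo (21.7 ± 2.08) had the highest means, followed by Sufu (18.3 ± 0.928), Ptch1 (17.9 ± 2.10) and Boc (16.2 ± 0.541), and the order of the last 4 genes was as in WT. The highest KD library of Ptch1 (20.3 TPM) lay within the KD ranges of Cdon and Smo. Boc was below the range of Ptch1 in WT (8.45 to 9.97 against 13.8 to 16.9 TPM) and overlapped it in KD (15.6 to 16.7 against 16.6 to 20.3 TPM). Among all genes tested, the mean WT level of Smo was at the percentile 42.6, Gli3 at 18.1, Gli1 at 8.52 and Hhip at 4.18, so the members were of middle to low abundance.

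Within pairs of same-numbered libraries, the 7 genes that rose were higher in KD in each of the 3 pairs. The log2 CPM ratios of pairs 1, 2 and 3 were 1.34, 1.15 and 0.57 for Gli3 and 1.3, 0.80 and 0.33 for Gli2. They were 0.92, 0.66 and 0.64 for Boc, 0.82, 0.49 and 0.15 for Cdon, 0.54, 0.38 and 0.04 for Smo and 0.42, 0.20 and 0.13 for Sufu. For these 6 genes pair 1 had the largest ratio and pair 3 the smallest, and for Smo the difference in pair 3 was close to 0. Gli1 departed from this order, at 1.10, 1.70 and 1.38. Ptch1 was at 0.21, 0.19 and -0.03 and Hhip at 0.17, -0.21 and 0.74, with both directions present. Ybx1 itself was at -2.65, -2.74 and -2.04 in the same pairs, so it fell least in pair 3 and most in pair 2. The 6 genes above rose least in pair 3 and most in pair 1. A relation between Ybx1 and these genes was not tested, with 3 pairs. When the fit included the pair as a block, the same 7 genes passed, and 18.6% of all genes were called higher. The blocked adjusted p was 2.6e-05 for Gli1, 9.7e-06 for Gli3 and 0.131 for Ptch1.

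**Figure D3:**
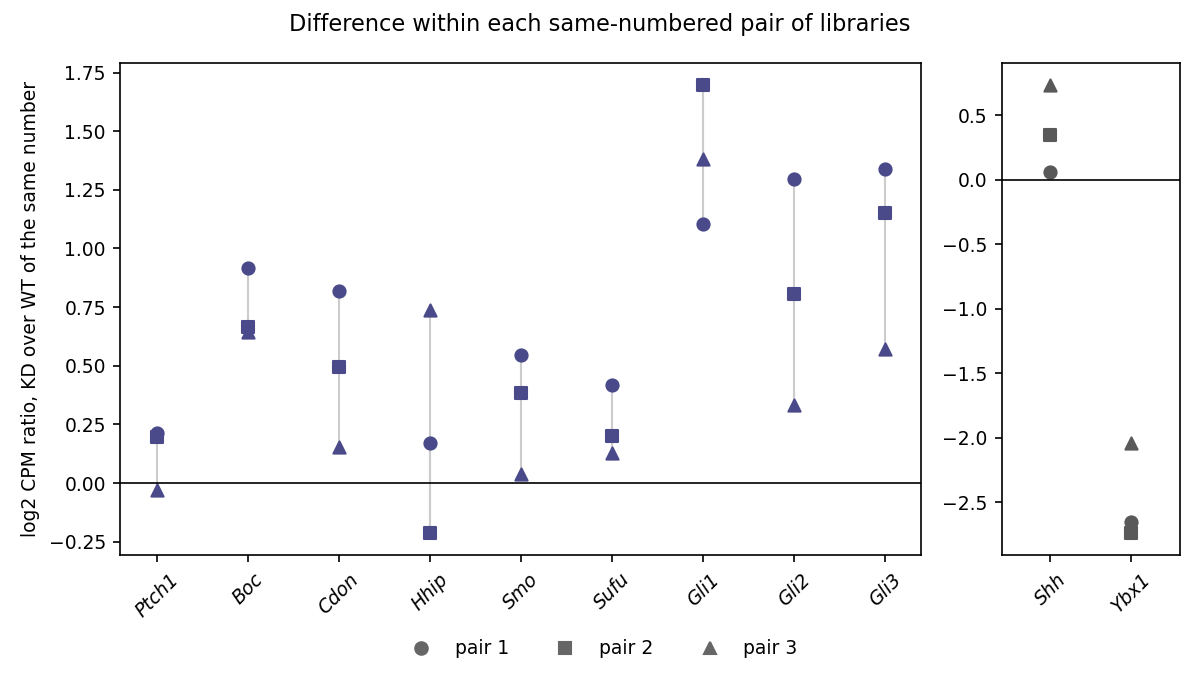
Log2 ratio of CPM, KD over WT, within each same-numbered pair of libraries (y axis) for the 9 members in the left panel and for Shh and Ybx1, on a y axis of their own, in the right panel. Circles (pair 1) are highest and triangles (pair 3) lowest for Boc, Cdon, Smo, Sufu, Gli2 and Gli3. Ybx1 fell least in pair 3 and most in pair 2.

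The ligand gene Shh was present at low levels. It was at 5.77, 2.78 and 2.12 CPM in WT and 6.01, 3.54 and 3.52 CPM in KD, with the highest value in replicate 1 of both groups. The groups overlapped, and the log2 fold change was 0.29 (SE 0.36, adjusted p = 0.599), with a 95% interval from -0.53 to 1.11. It was 0.83 without WT replicate 1 (adjusted p = 0.0804), 0.14 and 0.03 on leaving out WT replicates 2 and 3 in turn, and -0.01 when KD replicate 1 was omitted. Within pairs, the log2 ratios of Shh were 0.06, 0.35 and 0.73, smallest in pair 1, the pair in which Gli2 and Gli3 differed most. The TPM ratio of Gli1 to Shh was 0.481, 0.411 and 0.767 in WT and 0.992, 1.15 and 1.20 in KD, without overlap. Shh had 34 to 100 counts per library. Neither the difference between the changes of Gli1 and Shh nor a relation of Shh to the Gli genes was tested. The other ligand genes, Ihh and Dhh, had at most 7 counts in any library and were too low to test. Genes for ligand processing and release (Hhat, Disp1, Scube1, Scube2 and Scube3) had log2 fold changes of 0.45, -0.13, -0.26, 0.20 and -0.22, with adjusted p values of at least 0.211. Scube1 and Scube3 passed as lower with the replicate block (adjusted p = 0.00146 and 0.028).

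Of 5 further receptors and co-receptors, 2 rose. Gas1, a membrane-anchored co-receptor, was at 35.6, 36.7 and 37.4 CPM in WT and 54.6, 46.8 and 44.7 CPM in KD, a fitted difference of 0.41 log2 units (SE 0.08, adjusted p = 0.00747). Gpc6, a glypican, was at 13.2, 11.0 and 15.2 CPM in WT and 22.6, 19.0 and 20.8 CPM in KD, a fitted difference of 0.67 log2 units (SE 0.13, adjusted p = 0.00697). Gas1 thus rose as did Boc and Cdon, the co-receptors among the members. Lrp2 (-0.31, adjusted p = 0.446) and Gpc3 (0.08, adjusted p = 0.77) did not pass, and Gpc3 was at -0.01 without WT replicate 1 and at -0.00051 without KD replicate 3.

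The remaining pathway genes moved in both directions. Over all 64 listed genes other than the members, 62 had a row, 59 were tested, 12 rose and 7 fell, with a median log2 fold change of 0.03. In the same fit, 12% of all genes tested were called higher and 11.9% lower. Whether these genes, or the lists within them, differ from those shares was not tested. Of 20 cytoplasmic and ciliary regulators, 4 rose and 3 fell. The rises included Csnk1a1 (0.60, adjusted p = 1.7e-04), a casein kinase that acts on Smo and on the Gli proteins, Tulp3 (0.26, adjusted p = 0.025), which brings receptors into the cilium, and Btrc (0.22, adjusted p = 0.0117), part of the ubiquitin ligase that acts on Gli3. The falls included Prkacb (-0.25, adjusted p = 0.0112), a catalytic subunit of protein kinase A, the kinase that primes Gli3 for processing. Of 20 genes for transport in the primary cilium, 4 rose and 4 fell. Ift52 (0.81, adjusted p = 0.00163), Ift80 (0.55, adjusted p = 0.0146) and Ift88 (0.28, adjusted p = 0.0264), components of the intraflagellar transport particle, rose, while Dync2li1 (-0.28, adjusted p = 0.0285), of the dynein motor, and Kif3b (-0.21, adjusted p = 0.0485), of the kinesin motor, fell. Of the 8 tested genes reported downstream of the pathway in other settings, Foxm1 (0.50, adjusted p = 0.00484) and Ccnd2 (0.35, adjusted p = 0.0211), both of the cell cycle, rose and 0 fell. With the replicate block, 4 of these 8 were higher and 2 lower, Nkx2-2 (-0.53, blocked adjusted p = 0.0229) and Olig2 (-0.17, blocked adjusted p = 0.0192), named after their values were seen, and 7 of the 20 cilium genes were higher and 5 lower. Some of these calls were lost when one library (group and replicate number) was left out. For Tulp3 the adjusted p was then 0.0898 without WT 2, 0.0778 without KD 1 and 0.0719 without KD 2. For Btrc the adjusted p was then 0.0562 without KD 2. For Ift80 the adjusted p was then 0.0565 without WT 2. For Ift88 the adjusted p was then 0.0576 without WT 1, 0.0972 without WT 2, 0.0788 without KD 1 and 0.0806 without KD 2. For Dync2li1 the adjusted p was then 0.0817 without WT 1, 0.0684 without WT 3, 0.0794 without KD 1, 0.0686 without KD 2 and 0.0602 without KD 3. For Kif3b the adjusted p was then 0.0788 without WT 1, 0.152 without WT 2, 0.0736 without WT 3, 0.108 without KD 1 and 0.07 without KD 3. For Ccnd2 the adjusted p was then 0.0505 without WT 1, 0.0746 without WT 2 and 0.0584 without KD 1. With DESeq2 the adjusted p was 0.0689 for Tulp3, 0.0689 for Ift88 and 0.0665 for Dync2li1. For Kif3b it was 0.0506 with RLE scaling, 0.058 with total count scaling, 0.0532 without the filter and 0.112 with limma on TPM. Without both replicate 2 libraries, Csnk1a1 alone of the 59 genes passed. With the replicate block, 17 of the 59 genes were called higher and 13 lower, against 18.6% and 18.1% of all genes tested. The number lower was 3 without WT replicate 1 or KD replicate 1, and 4 without WT replicate 2, WT replicate 3 or KD replicate 3. The number higher was 7 without WT replicate 2 or KD replicate 2.

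**Figure D4:**
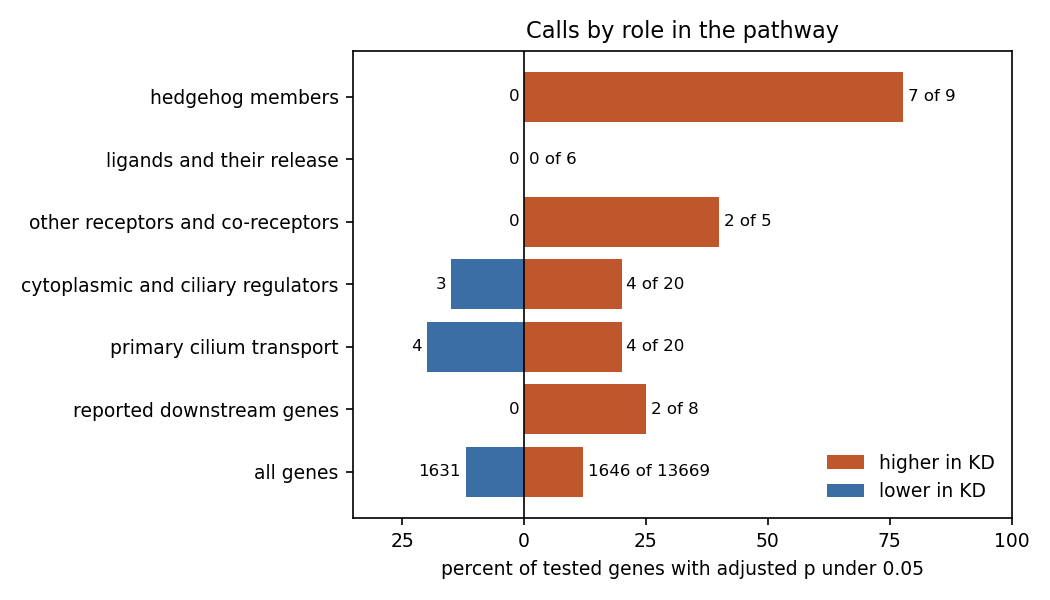
Percent of tested genes with an adjusted p under 0.05 (x axis) that were higher (orange, right) or lower (blue, left) in KD, by role in the hedgehog pathway, with the counts printed beside the bars and all genes at the bottom. The members stand at 7 of 9 higher and 0 lower, whereas the regulators and the cilium genes have calls in both directions.

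Because hedgehog genes differ between cell types, markers of the cells that such a culture may hold were summed per library. Intermediate progenitor markers were the list whose groups did not overlap, at 74.2 to 92.6 CPM in WT and 154 to 189 CPM in KD, with 5 of 6 tested genes higher. Among its 3 most counted genes, Insm1 (1.42, adjusted p = 7.0e-04), Eomes (1.57, adjusted p = 0.00813) and Btg2 (0.31, adjusted p = 0.0473) rose. Radial glia are the progenitors in which Gli genes are mainly expressed in the cortex. Their markers summed to 1452 to 1607 CPM in WT and 1552 to 1770 CPM in KD, with 2 of 10 higher and 0 lower. The 2 were Pax6 (0.61, adjusted p = 0.0185) and Hes1 (0.49, adjusted p = 0.0445), both named after their values were seen. The 3 most counted of the list did not pass: Fabp7 (0.04, adjusted p = 0.601), Slc1a3 (-0.02, adjusted p = 0.925) and Vim (0.21, adjusted p = 0.195). Vim passed as higher with the replicate block (adjusted p = 0.0109). The estimated counts of Pax6 were not whole numbers in any library. With one library (group and replicate number) left out, calls were lost as follows. The adjusted p of Pax6 was 0.0738 without WT 2. The adjusted p of Hes1 was 0.105 without WT 1, 0.0687 without WT 2, 0.106 without WT 3, 0.122 without KD 2 and 0.127 without KD 3. The adjusted p of Btg2 was 0.122 without WT 1, 0.101 without WT 2, 0.133 without KD 1, 0.0729 without KD 2 and 0.0653 without KD 3. The adjusted p of Gsx2 was 0.0655 without WT 1, 0.0708 without WT 2, 0.0509 without WT 3 and 0.0603 without KD 1. Hes1 was at 0.12 with DESeq2, 0.0501 with limma-voom and 0.0506 with upper quartile scaling, and Btg2 at 0.0619 with the last. With the replicate block, 5 of the 10 radial glia genes were higher. Markers of ventral forebrain and GABAergic cells, which lie nearer to the source of the ligand, summed to 841 to 1232 CPM in WT and 866 to 1272 CPM in KD, with 4 of 12 higher and 0 lower (5 and 2 with the replicate block). Among them, also named after their values were seen, were Dlx2 (1.23, adjusted p = 9.6e-04), Sp8 (0.60, adjusted p = 0.0053) and Gsx2 (0.86, adjusted p = 0.0258). Lhx6 and Nkx2-1 were highest in replicate 1 of both groups, at 11.8 CPM of Nkx2-1 in WT and 15.5 in KD against 4.2 to 5.11 in the other 4 libraries, as were Shh and Gli1. Transcripts of ventral forebrain genes were thus present in libraries labelled cortex. The part of these cell types in the rise of the hedgehog genes was not tested.

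Sums of the other marker lists overlapped between the groups, and the shares over all genes tested are those given above. Neuron markers summed to 6359 to 7033 CPM in WT and 6125 to 6996 CPM in KD, with 1 of 9 higher and 2 lower (4 and 2 with the replicate block). Oligodendrocyte lineage markers summed to 365 to 508 CPM in WT and 314 to 411 CPM in KD, with 2 of 5 lower (4 with the replicate block), and astrocyte markers to 393 to 477 CPM in WT and 417 to 463 CPM in KD, with 0 of 5 tested past the threshold. Markers of non-neural cells were low, and 1 of 3 tested mural and meningeal genes was higher. Microglia markers summed to 1.67 to 3.34 CPM in WT and 1.76 to 2.65 CPM in KD, endothelial markers to 2.18 to 3.46 CPM in WT and 1.76 to 3.07 CPM in KD, mural and meningeal markers to 9.23 to 13.2 CPM in WT and 12.4 to 15.0 CPM in KD, and choroid plexus and cortical hem markers to 4.37 to 6.10 CPM in WT and 5.29 to 9.40 CPM in KD. In all of these lists, 0 genes had no count in every library.

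Profiles over the 6 libraries were compared by the root mean square difference of log2 CPM, after centring each gene on its own mean. The genes nearest to each risen member are given. The risen members were picked for a difference between KD and WT, so near genes share much of it by construction. Cdk6 had a log2 fold change of 1.06 beside 1.03 for Gli3, and Golim4 0.77 beside 0.74 for Boc. The nearest to Gli3 were Cdk6 (0.0877) and Palld (0.101) and to Gli2 Phf21b (0.0955) and Ypel2 (0.0987). Cdk6 is a kinase of the cell cycle that acts with the D-type cyclins. Gli1 was nearest to Tfap2c (0.104) and Ecrg4 (0.151), Boc to Golim4 (0.0467) and Stk11ip (0.0648) and Cdon to Bcl2l11 (0.0561) and Heatr5a (0.061). Smo was nearest to Sox11 (0.0281) and Lrp5 (0.0443), and Sufu to Pdk2 (0.0257) and Phrf1 (0.0265). Sox11 is a transcription factor of immature neurons. The distances, in log2 units, were larger for the Gli genes, which also had the largest log2 fold changes, than for Boc, Cdon, Smo and Sufu. The cause of this was not tested.

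Promoter sequence was compared because members of one pathway moved in the same direction. RefSeq promoter windows on GRCm38.p6, from 250 bases before to 50 bases after the start of transcription, were at hand for 7 of the 9 members, not for Gli1 or Boc. The windows of Gli2 and Gli3, the members with the largest rises among these, and of Sufu are shown 5′ to 3′ on the strand of the gene, with a CCAAT box in capitals where one occurs. This box is the core of the Y-box element for which the Ybx family is named.

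Gli2 (chr1:119053570-119053869, minus strand): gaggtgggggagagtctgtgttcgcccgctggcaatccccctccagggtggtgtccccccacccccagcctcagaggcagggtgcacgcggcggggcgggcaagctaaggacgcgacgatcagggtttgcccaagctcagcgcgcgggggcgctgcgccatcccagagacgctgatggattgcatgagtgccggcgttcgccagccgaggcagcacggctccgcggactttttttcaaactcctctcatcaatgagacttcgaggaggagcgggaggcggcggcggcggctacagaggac

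Gli3 (chr13:15463473-15463772, plus strand): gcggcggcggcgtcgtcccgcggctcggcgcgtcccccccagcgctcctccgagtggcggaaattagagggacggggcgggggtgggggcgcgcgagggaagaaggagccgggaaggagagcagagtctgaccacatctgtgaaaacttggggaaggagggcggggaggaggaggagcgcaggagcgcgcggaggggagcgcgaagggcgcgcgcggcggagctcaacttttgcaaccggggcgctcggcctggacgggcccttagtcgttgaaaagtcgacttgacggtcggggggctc

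Sufu (chr19:46396646-46396945, plus strand): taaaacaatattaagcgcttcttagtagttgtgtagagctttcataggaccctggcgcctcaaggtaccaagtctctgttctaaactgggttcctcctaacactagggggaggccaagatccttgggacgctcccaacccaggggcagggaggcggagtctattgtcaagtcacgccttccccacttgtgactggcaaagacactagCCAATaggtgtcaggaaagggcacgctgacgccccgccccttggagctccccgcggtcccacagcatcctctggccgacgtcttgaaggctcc

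The letters CCAAT, on either strand, occurred in 2 of the 7 windows (Sufu and Cdon), against 37.4% of all 32851 windows. The Gli binding motif TGGGTGGTC, on either strand, occurred in 0 of the 7 windows and in 0.253% of all windows. The Gli2 and Gli3 windows held 67.3% and 71.0% G or C with 28 and 39 CpG sites, against a median of 52.7% and 7 CpG sites over all windows. The Ptch1 window, of a gene that did not pass, was at 76.3% with 47 CpG sites, while Cdon, which rose, was at 44.7% with 3. The Cdon, Ptch1 and Gli3 windows have their start inside the GENCODE gene bounds given above, so other start sites of these genes were not covered.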

How the data were processed

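RNA of 3 WT and 3 KD cultures was sequenced on the DNBSEQ platform after mRNA purification. The submitters' processing notes name HISAT2 2.2.1, Bowtie2 2.4.5 and RSEM 1.3.1 and the builds GRCm38 and mm10, without giving a role to each. The authors deposited estimated counts per gene, TPM scaled to a fixed total per library, FPKM and group averages, and the last 12 columns (FPKM and averages) were not used. Each Ctrl column was taken as the WT library whose title carries its number.

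The main test, on rounded estimated counts, used edgeR 4.0.16 under R 4.3.3 (TMM scaling, filterByExpr with minimum count 10, quasi-likelihood F test, Benjamini-Hochberg adjustment over 13669 genes, threshold 0.05). Each SE was obtained from the size of the log2 fold change and the root of F, and 95% intervals use the test's degrees of freedom. Alternatives were other scalings and filters, DESeq2 1.42.0, limma 3.58.1 (voom, and trend on log2(TPM + 1)), a replicate block, omitted libraries and a threshold of 0.01. Deviations from group means correlated over genes at 0.32, 0.29 and 0.16 for replicates 1, 2 and 3 and at -0.26 to -0.01 for different numbers. Because deviations are taken from group means, these values are not independent of each other. Same-numbered libraries were therefore also treated as pairs, though the sources used here do not state a pairing. Replicates within a group differed by a chi-square of 4.45 to 8.71 per degree of freedom, above sampling noise.

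Genes named were the 9 members, Ybx1, the ligand and further receptor genes, up to 5 genes past the threshold in each pathway list, the most counted genes of marker lists that differed, and the 2 nearest profiles of each risen member. A few genes that this rule names are not reported here. Members and lists were chosen with earlier results of these data known. The methods speak of independent experiments, and the sources used here do not say more of what separates replicates. The p-values set the difference between KD and WT against the spread between these libraries. What that spread covers is not known, and the number of libraries limits the precision.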

Additional observations from a re-analysis of the deposited data

How the results depend on the processing

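All 17 alternatives called Ybx1 lower, at -2.72 to -2.29. Of the 9 hedgehog members, 7 were called higher under RLE and total count scaling, both filters, limma-voom, limma-trend on TPM and the replicate block, and 6 under DESeq2 and upper quartile scaling. Leaving out one library gave 4 to 7 (4 without KD replicate 2), leaving out both replicate 2 libraries gave 1 (Boc), with fewer samples, and an adjusted p under 0.01 gave 3. Under these 17 alternatives no member was called lower and none changed its sign. Of the other pathway genes, 12 were higher and 7 lower, with 7 to 12 and 3 to 5 when one library was left out, 1 and 0 without both replicate 2 libraries, 5 and 2 at an adjusted p under 0.01, and 13 lower with the replicate block. Over all genes, 1646 were higher and 1631 lower, against 2539 and 2470 with the replicate block, 779 to 1612 and 797 to 1583 when one library was left out, 135 and 93 without both replicate 2 libraries, 629 and 634 at an adjusted p under 0.01 and 1072 lower with limma-trend on TPM, where 65.95% of calls were higher against 50.23%. The replicate block changed no call of a member. When one library was left out, Shh ranged from -0.014 to 0.83 (lowest without KD replicate 1) and Gpc3 from -0.013 to 0.19 (lowest without WT replicate 1, and -0.00051 without KD replicate 3), neither past the threshold. Where no cause is named, the cause was not tested. Depth limits genes of few counts, such as Hhat at 9 to 23, Scube2 at 16 to 28 and Hhip at 42 to 75 per library.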
